A study of Mus musculus with 32 samples.

Results

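The GIMAP genes encode GTPases of immunity-associated proteins, and 8 of them are described here: Gimap1, Gimap3, Gimap4, Gimap5, Gimap6, Gimap7, Gimap8 and Gimap9. They were taken by gene name from a table of 53465 genes, 8 of 53465. Gimap4 was selected on measured values, because its level was higher in light zone than in dark zone B cells and tended to be higher in the light zone with activated PIK3CD, so its values in those comparisons are a description and were not tested. The other 7 genes were added as its family. They were measured in the same libraries, and no member was tested in those comparisons either. In every other comparison with a zone as a group, Gimap4 is described with no test and left out of the counts, which then cover the other 7 genes.

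RNA was sequenced from 4 populations of splenic B lineage cells: naive B cells, dark zone and light zone B cells of the germinal centre, and plasma cells. All mice were C57BL/6, 12 weeks of age, and had been given NP-CGG in alum intraperitoneally 14 days earlier, which sets off a T cell dependent germinal centre response. The groups labelled aPIK3CD carried activated PIK3CD, the catalytic subunit p110 delta of a lipid kinase, together with AID-cre. The controls, labelled AID-cre WT, carried the cre as well. Each of the 8 groups held 4 libraries of 500 sorted cells. The labels do not say whether replicates came from separate mice, so p-values measure the spread between these libraries only. Library names repeat a control or PIK3CD number across the 4 populations, which may stand for 1 mouse. The main fits use no such pairing. The 4 libraries titled aPIK3CD replicate 1 have a WT genotype field, and were kept with their title.

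GIMAP proteins bind GTP, are related in their GTPase domain to septins and to plant defence proteins, and sit largely on intracellular membranes of lymphocytes, including those of lysosomes, mitochondria and the endoplasmic reticulum. They are known for roles in lymphocyte survival and homeostasis. Gimap1 and Gimap5 are required for normal numbers of mature lymphocytes in mice, Gimap3 acts with Gimap5 in T cells, Gimap6 has been tied to autophagy, and Gimap4 to T cell death and cytokine secretion. In the mouse the genes lie side by side in a cluster on chromosome 6.

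In the order of the RefSeq GRCm38.p6 annotation the cluster reads Gimap8, Gimap9, Gimap4, Gimap6, Gimap7, Gimap1, Gimap5 and Gimap3. The 250 bases before an annotated start are shown for 4 genes. Gimap4 and Gimap5 are shown because they differed most between the germinal centre zones, and Gimap3 because it shares coding sequence with Gimap5. Gimap9 is shown because it differed in the other direction although it lies next to Gimap4. Capitals mark matches, on either strand, to letters of motifs bound by factors known in lymphocytes.
Gimap4 promoter, chr6:48684328-48684577, plus strand: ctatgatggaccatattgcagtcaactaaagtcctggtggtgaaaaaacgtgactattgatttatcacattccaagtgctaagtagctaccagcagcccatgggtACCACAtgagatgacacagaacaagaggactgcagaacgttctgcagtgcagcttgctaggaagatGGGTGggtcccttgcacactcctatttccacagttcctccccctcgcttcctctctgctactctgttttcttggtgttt
Gimap9 promoter, chr6:48675885-48676134, plus strand: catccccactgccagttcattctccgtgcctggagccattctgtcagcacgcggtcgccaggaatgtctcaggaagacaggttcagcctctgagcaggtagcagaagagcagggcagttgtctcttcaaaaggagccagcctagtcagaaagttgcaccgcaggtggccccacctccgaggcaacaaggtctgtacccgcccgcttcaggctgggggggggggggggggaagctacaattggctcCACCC
Gimap5 promoter, chr6:48745947-48746196, plus strand: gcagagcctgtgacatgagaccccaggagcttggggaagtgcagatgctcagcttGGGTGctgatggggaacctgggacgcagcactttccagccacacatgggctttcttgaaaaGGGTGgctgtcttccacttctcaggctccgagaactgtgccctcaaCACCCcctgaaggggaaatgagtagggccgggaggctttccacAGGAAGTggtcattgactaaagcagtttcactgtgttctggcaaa
Gimap3 promoter, chr6:48770852-48771101, minus strand: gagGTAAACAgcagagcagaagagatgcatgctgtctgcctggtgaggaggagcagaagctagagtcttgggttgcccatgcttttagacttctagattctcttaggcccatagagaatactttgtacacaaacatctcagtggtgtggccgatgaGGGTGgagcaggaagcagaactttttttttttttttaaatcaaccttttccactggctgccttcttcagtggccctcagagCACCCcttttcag

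The sequences come from RefSeq, build GRCm38.p6, where all 8 genes had an entry, and run 5′ to 3′ on the gene's strand. The motifs searched were TGTTTAC for FOXO, TGTGGT for RUNX, AGGAAGT for ETS, CACCC for KLF and TGGGAA for Ikaros, each also as its reverse complement, and no pair of printed matches overlapped. The Gimap4 window held a RUNX match 145 bases before the start and a KLF match 79 bases before it. The Gimap9 window held a KLF match 5 bases before the start used for it. That window runs to 48676134, while the gene begins at 48676121 in the order above. Its last bases, with the KLF match, thus lie inside the annotated gene. The Gimap5 window held 1 ETS and 3 KLF matches, and the Gimap3 window 1 FOXO and 2 KLF matches. Among all 32851 promoter windows of this length, 3.17% held the FOXO letters, 14% the RUNX, 7.69% the ETS, 52% the KLF and 21.6% the Ikaros letters. The Ikaros letters were in none of the 9 windows of the 8 genes, of which Gimap8 has a second start. A match is a stretch of letters and was not measured as a bound site.

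Gimap3 and Gimap5 share sequence, which bears on how their counts can be told apart. Of the windows of 50 bases in the Gimap3 transcripts, 190 (7.52%) were also in Gimap5, where they made up 4.53%. No other pair of the 8 genes shared a window of that length. The longest shared run had 140 bases and lay in the coding part of both genes. It is printed as it stands in Gimap5, at chr6:48752684-48752823 on the plus strand of GRCm38, with no part singled out.
Gimap5 and Gimap3 shared coding run: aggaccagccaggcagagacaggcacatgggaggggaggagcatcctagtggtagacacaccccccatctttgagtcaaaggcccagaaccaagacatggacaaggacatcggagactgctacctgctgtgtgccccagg

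Reads from those bases cannot be assigned to either gene, and the sources used here do not say how such reads were counted. The antisense gene Gimap1os covers 36% of the exonic bases of Gimap1, and reads of the 2 genes cannot be told apart without strand, which is not stated. Gimap1os had at most 84 counts in any library, against 164 or more for Gimap1 in the 31 libraries of at least 473149 counts. A read-through gene, Gm28053, overlaps 6.44% of Gimap1, 3.69% of Gimap5 and 3.48% of Gimap7 exonic bases and had at most 42 counts.

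Total counts were 1965329 to 2820830 in naive B cells, 902088 to 1835558 in the light zone and 473149 to 788999 in plasma cells. In the dark zone they were 1154809 to 1941224, except for WT replicate 3 with 25797. That library held 1 to 7 counts per GIMAP gene. Some of the GIMAP gene changes that use it are also given without it, while the rest, and those of other genes, include it. Counts per gene were bounded in the whole table near 2 per exonic base, with a maximum of 2.07. The sources used here do not say how this bound arose. The GIMAP genes reached at most 0.890 (Gimap4). Pik3cd itself averaged 77.5 to 210.5 CPM (counts scaled by library size) across the 8 groups, which checks nothing about an activating allele. Plasma cell markers summed to 11760 to 16020 CPM in plasma cells and to at most 2620 elsewhere, and germinal centre markers to 1384 to 2703 CPM in the zones and at most 150.0 elsewhere. Levels below are CPM after TMM scaling, given as mean ± SD of 4 libraries, and fold changes are on the log2 scale with their standard error (SE).

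Naive B cells had the highest summed level of the 8 genes. The sum was 3028 ± 425 CPM in WT and 2993 ± 124 in aPIK3CD naive cells, and 1234 ± 271 and 1241 ± 89.8 in the dark zone. Without the shallow library the WT dark zone sum was 1351 ± 169.5 (n = 3). It was 1606 ± 150.2 and 1798 ± 111 in the light zone, and 2026 ± 167 and 1710 ± 77.5 in plasma cells. In bulk libraries such as these, fewer cells of a type and less RNA per cell cannot be told apart.

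**Figure D1:**
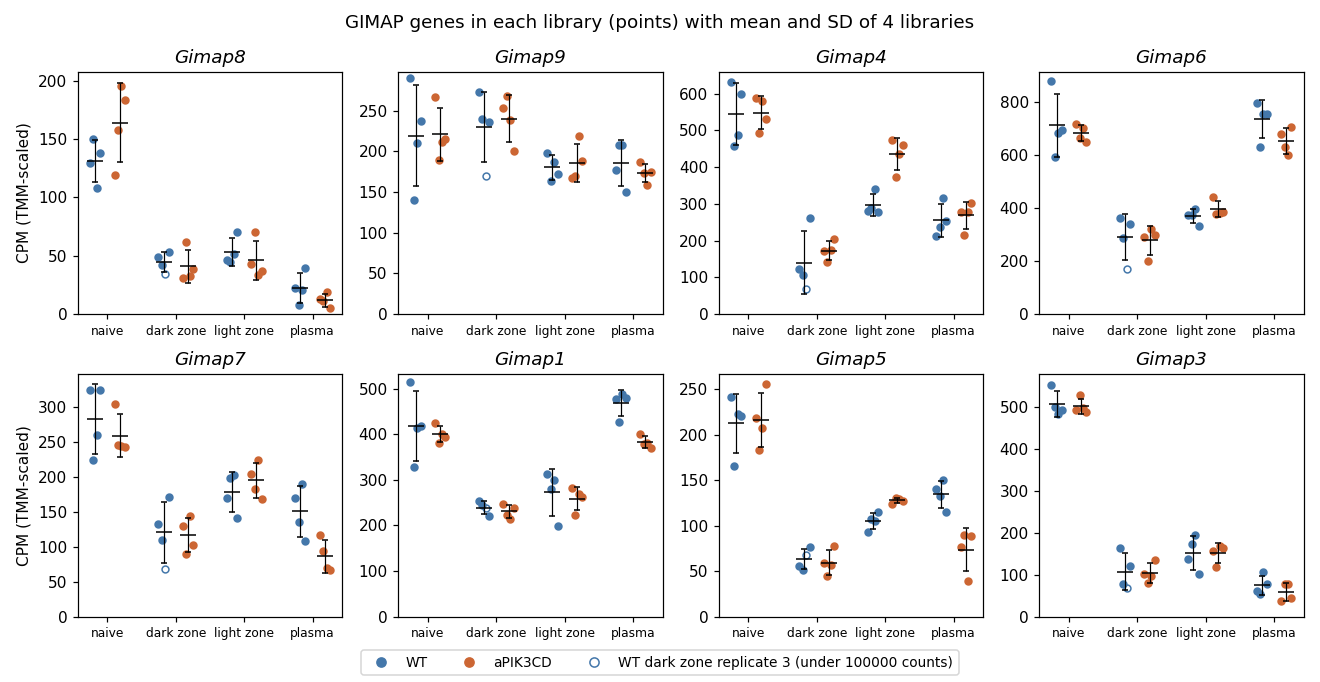
CPM of each GIMAP gene (vertical axis, a separate scale for each gene) in each library, by population and genotype, with black bars for the mean and SD of 4 libraries and an open circle for the shallow library. Gimap3 and Gimap8 are far above all other groups in naive cells, Gimap1 and Gimap6 are high in naive cells and plasma cells, and Gimap9 overlaps between most groups.

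Per kilobase of exon, Gimap4 had the highest level in WT naive B cells, with 296 ± 45.8 CPM per kilobase. Gimap6 (204 ± 34.4) and Gimap3 (196 ± 12.0) came next and differed by less than their spread. Gimap1 (136 ± 24.9), Gimap9 (134 ± 38.1) and Gimap7 (122 ± 21.5) lay close together, again within their spread. Gimap5 (51.2 ± 7.83) and Gimap8 (35.5 ± 4.82 CPM per kilobase) had the lowest levels. In WT plasma cells the order was different: Gimap6 led with 210.2 ± 20.5 CPM per kilobase, Gimap1 followed with 152 ± 9.19, and Gimap3 had 29.1 ± 8.85 and Gimap8 6.08 ± 3.47.

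Gimap4 itself was highest in naive cells and lowest in the dark zone. Its CPM in the WT libraries was 631, 457, 489 and 599.6 in naive cells, 280.1, 289, 342 and 278 in the light zone, 213, 237, 317 and 253 in plasma cells, and 124, 105, 68.1 and 263 in the dark zone. The dark zone value of 263 stands above the other 3, of which 68.1 is the library with 2 Gimap4 counts. In aPIK3CD the values were 589.5, 492, 581 and 530.3 in naive cells, 473, 373, 436 and 460.1 in the light zone, 278, 215, 279 and 303 in plasma cells, and 171, 141, 174 and 205 in the dark zone. The aPIK3CD light zone libraries thus lay between the naive and the plasma cell libraries of the same genotype, with no overlap on either side.

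By group mean the order of Gimap4 levels was naive aPIK3CD (548 ± 45.4 CPM), naive WT (544 ± 84.1), light zone aPIK3CD (436 ± 44.6), light zone WT (297 ± 30.2), plasma cells aPIK3CD (269 ± 37.4), plasma cells WT (255 ± 44.6), dark zone aPIK3CD (172 ± 26.1) and dark zone WT (139.9 ± 85.0). Neighbours in this order overlapped in their libraries, except light zone aPIK3CD with light zone WT and plasma cells WT with dark zone aPIK3CD. Between the first of these pairs lies the difference for which the gene was chosen.

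In both zones of the germinal centre, 6 of the 7 genes other than Gimap4 were lower than in naive B cells, all but Gimap9. In the dark zone 6 of 7 fell in WT and 6 of 7 in aPIK3CD (edgeR quasi-likelihood test, Benjamini-Hochberg adjusted p below 0.05 over all genes). Among all genes tested 21.6% fell in WT and 21.4% in aPIK3CD. The median log2 fold change of the 7 genes was -1.12 in WT and -1.29 in aPIK3CD, against -0.06 and -0.01 over all genes.

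Gimap3, which acts with Gimap5 in T cells, fell most in the dark zone. Its CPM was 551, 500.2, 482 and 491 in the WT naive libraries and 163, 76.7, 68.1 and 119.9 in the WT dark zone libraries. All naive libraries were above all dark zone libraries by a wide margin. The log2 fold change was -2.06 (SE 0.21, edgeR adjusted p = 1.15e-06) in WT and -2.26 (SE 0.14, edgeR adjusted p = 2.24e-07) in aPIK3CD. Without the shallow library the WT value was -2.08.

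Gimap5, the lysosomal member required for lymphocyte survival, fell by 1.74 on the log2 scale in the WT dark zone (SE 0.21, edgeR adjusted p = 5.87e-06) and fell by 1.85 in the aPIK3CD dark zone. Without the shallow library the WT value was -1.79. For Gimap4, described with no test, the dark zone difference was -1.72 (SE 0.26) in WT and -1.65 (SE 0.12) in aPIK3CD, and -2.24 in WT without the library at 263 CPM. Gimap8, a member with several GTPase domains, changed by -1.42 and -2.01. Gimap6, Gimap7 and Gimap1 had smaller changes, between -1.29 and -0.77. The same 6 genes passed the test without the shallow library.

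Gimap9 did not pass the test in either genotype. It was 219.5 ± 62.6 CPM in WT naive cells, with libraries at 290.3, 140.0, 210.1 and 238, and 229.9 ± 43.1 in the WT dark zone, with libraries at 273, 240.3, 170.1 and 237. The 2 groups overlapped over most of their range. The log2 fold change was 0.20 (SE 0.20, edgeR adjusted p = 0.447) in WT, 0.19 there without the shallow library, and 0.13 in aPIK3CD.

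Markers of natural killer cells moved with the naive and zone labels. The 6 markers summed to 248 to 434 CPM in WT naive cells, 0.648 to 8.84 in the WT dark zone libraries of full depth and 3.80 to 168 in the WT light zone. In aPIK3CD the sums were 210.1 to 419 in naive cells, 1.64 to 89.3 in the dark zone and 15.9 to 113 in the light zone. Dendritic cell markers moved in the same way. In WT they summed to 62.66 to 178.0 CPM in naive cells and 3.165 to 11.44 in the light zone. The WT dark zone libraries of full depth had 4.538 to 12.53. In aPIK3CD the sums were 16.01 to 86.89 in naive cells, 5.932 to 11.45 in the dark zone and 2.090 to 5.762 in the light zone. The part of both marker sets in the differences of the zones from naive cells was not tested.

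In the light zone 6 of the 7 genes other than Gimap4 fell in WT, when 20.2% of all genes did, and 6 of 7 in aPIK3CD, when 20.8% did. The range was -1.72 to -0.27 over the 7 genes in WT and -1.83 to -0.24 in aPIK3CD, with Gimap9 at the upper end each time. Gimap3 fell by 1.72 in both genotypes (SE 0.17 and 0.11, edgeR adjusted p = 4.52e-06 and 5.48e-07). The Gimap4 difference, on the libraries for which the gene was chosen and with no test, was -0.86 (SE 0.14) in WT and -0.33 (SE 0.10) in aPIK3CD. Gimap7 fell by 0.40 in aPIK3CD (SE 0.12, edgeR adjusted p = 0.0189), and had an adjusted p of 0.071 with a single fit over all groups. It also missed the threshold without naive aPIK3CD replicate 1 (adjusted p = 0.0612), light zone aPIK3CD replicate 2 (0.0524) or replicate 4 (0.0645), and when replicate 1 of aPIK3CD was grouped with WT (0.0776), by edgeR.

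**Figure D2:**
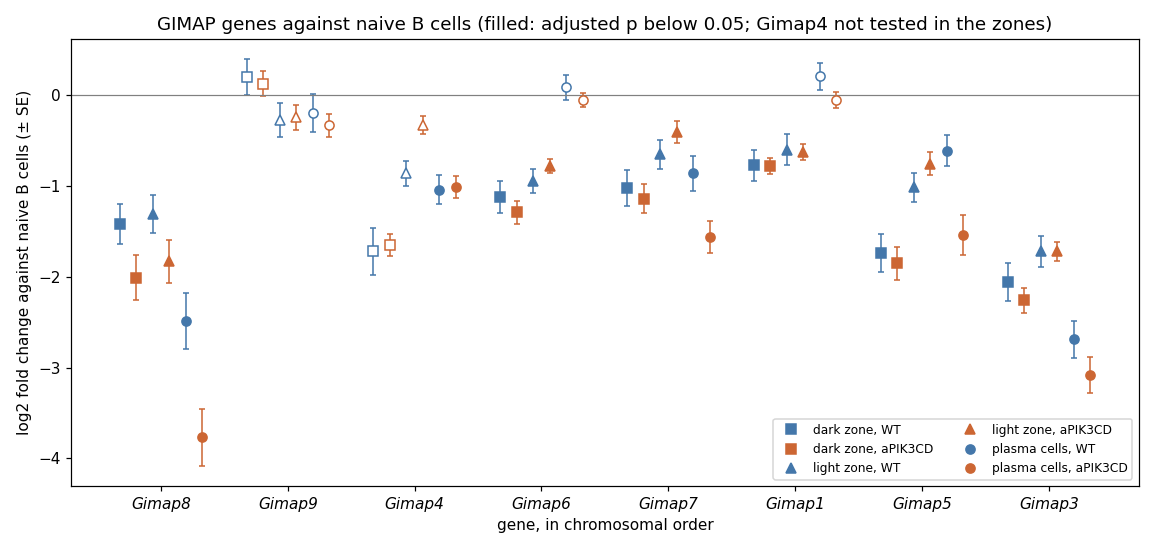
log2 fold change of each GIMAP gene against naive B cells of the same genotype (vertical axis, bars are ± SE), in the dark zone, light zone and plasma cells, with genes in chromosomal order. Filled symbols passed the edgeR test at an adjusted p below 0.05, Gimap4 was not tested in the zones, Gimap9 has no filled symbol, and Gimap1 and Gimap6 have none in plasma cells.

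Between the zones, Gimap4 and Gimap5 were higher in the light zone of both genotypes and Gimap9 lower. This contrast chose Gimap4, so it is given without a test. In WT, Gimap5 was 92.95, 107, 105 and 115 CPM in the light zone and 56.1, 51.6, 68.1 and 76.5 in the dark zone. In aPIK3CD it was 124, 130.3, 129.6 and 127 in the light zone and 58.3, 45.0, 56.7 and 77.4 in the dark zone. The light zone libraries were all above the dark zone libraries in each genotype, and those of aPIK3CD were close to each other.

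The log2 difference of light over dark zone was 0.89 (SE 0.23) for Gimap4 and 0.77 (SE 0.21, also 0.77 without the shallow library) for Gimap5 in WT. In aPIK3CD it was 1.33 (SE 0.13) and 1.10 (SE 0.18). In WT the Gimap4 difference was 0.86 without the shallow dark zone library and 1.41 without dark zone replicate 4. In WT, 2 of 8 genes had light zone libraries all above the dark zone libraries, Gimap4 and Gimap5, and 5.67% of all genes did. In aPIK3CD 4 of 8 did, with Gimap6 (0.51) and Gimap7 (0.74) in addition, and 6.85% of all genes. Nothing is read from these shares, since the contrast was used to choose the family.

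Gimap9, the gene beside Gimap4, had a difference of -0.44 (SE 0.14) in WT, -0.46 without the shallow library, and -0.37 (SE 0.13) in aPIK3CD. Its WT light zone libraries were at 198, 163, 187 and 173 CPM. Of the dark zone libraries given above, the 3 with full depth were all higher than these. The aPIK3CD zones overlapped. Markers of light zone B cells moved with the zone labels, summing to 1355 to 1692 CPM in the WT light zone and 600.6 to 1003 in the WT dark zone. The highest of the latter was dark zone replicate 4, the library with the high Gimap4 value. That library also had the highest dark zone marker sum of the WT dark zone, at 701.5 CPM. Replicates 1, 2 and 3 had 591.7, 624.2 and 272.2. The light zone markers do not mark the light zone alone. They summed to 1691 to 1960 CPM in WT plasma cells and 1197 to 1503 in WT naive cells. Naive B cell markers were higher in the light zone as well. They summed to 1049 to 1189 CPM in the WT light zone and 683.9 to 877.2 in WT dark zone libraries of full depth. In aPIK3CD they summed to 1029 to 1193 and 608.5 to 823.9. Monocyte, macrophage and neutrophil markers summed to 68.62 to 281.8 CPM in the WT light zone and 13.27 to 30.47 in those dark zone libraries. In aPIK3CD these ranges were 21.18 to 399.2 and 15.32 to 75.55. The part of these marker levels in the zone differences was not tested.

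**Figure D3:**
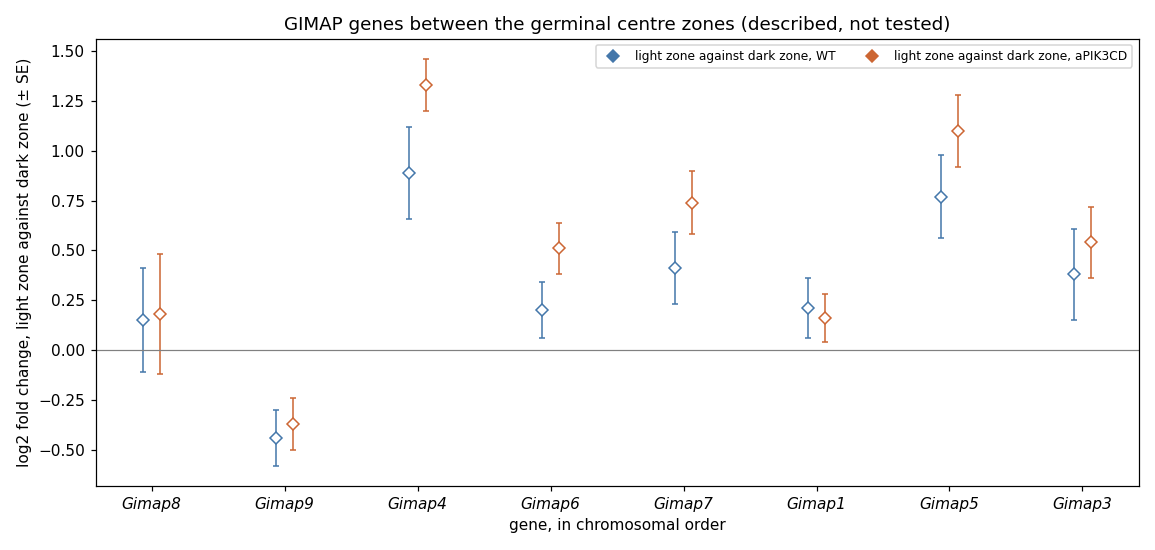
log2 difference of light zone over dark zone for each GIMAP gene (vertical axis, bars are ± SE) in WT and aPIK3CD, shown without a test because the contrast was used in choosing Gimap4. Gimap4 and Gimap5 have the highest values in both genotypes and Gimap9 lies below 0 in both.

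Plasma cells divided the family. Against naive B cells, Gimap3, Gimap4, Gimap5, Gimap7 and Gimap8 were lower in both genotypes, and Gimap1, Gimap6 and Gimap9 did not pass the test in either. Gimap9 came near it in aPIK3CD, at -0.33 (SE 0.13, edgeR adjusted p = 0.0533) with plasma cell libraries all below naive ones, and passed under 5 of 19 alternatives. In all, 5 of 8 fell in WT, beside 24.2% of all genes, and 5 of 8 in aPIK3CD, beside 26.2%. Gimap8 is among the 5 each time, and passed the filter on low counts through its naive libraries. The medians were -0.74 and -1.28, against -0.09 and -0.08 over all genes. Of the 8 genes 0 rose, while 25.4% of all genes rose in WT and 26.5% in aPIK3CD.

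Gimap3 fell by 2.69 in WT plasma cells (SE 0.20, edgeR adjusted p = 4e-08), a 6.45-fold difference. The WT plasma cell libraries were at 61.2, 54.6, 106 and 78.2 CPM, and the aPIK3CD libraries at 37.3, 78.2, 76.7 and 44.2, all far below the naive libraries. In aPIK3CD the log2 fold change was -3.08 (SE 0.20, edgeR adjusted p = 1.3e-07).

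Gimap8 was the lowest of the family in plasma cells. It had 3 to 17 counts per plasma cell library, or 22.7, 7.80, 20.5 and 39.1 CPM in WT and 12.4, 11.4, 18.7 and 5.10 in aPIK3CD. The naive libraries were at 129, 150.1, 108 and 138 CPM in WT and 119, 158, 196 and 184 in aPIK3CD. The log2 fold change was -2.49 (SE 0.31, edgeR adjusted p = 1.17e-05) in WT and -3.77 (SE 0.31, edgeR adjusted p = 8.01e-07) in aPIK3CD. Gimap8 passed the filter on low counts here through its naive libraries, and failed it when only plasma cell libraries were compared. A gene kept in this way is low in plasma cells by selection, so these calls add little to the levels. Against the dark zone, below, it passed the filter through the dark zone libraries. The difference between the genotypes, -1.25 (SE 0.49), did not pass the test (edgeR adjusted p = 0.348), and was -1.26 without the shallow library.

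Gimap4, Gimap7 and Gimap5 had intermediate changes in plasma cells. Gimap4 changed alike in size in both genotypes, by -1.04 (SE 0.16) in WT and -1.01 (SE 0.12) in aPIK3CD. Gimap7, whose protein is a GTPase that forms dimers, changed by -0.86 (SE 0.19, edgeR adjusted p = 0.00189) in WT and -1.56 (SE 0.18, edgeR adjusted p = 1.74e-05) in aPIK3CD. Gimap5 changed by -0.61 (SE 0.17, edgeR adjusted p = 0.00852) and -1.54 (SE 0.22, edgeR adjusted p = 9.57e-05). The genotypes had different values for Gimap5 and Gimap7, and the test of that difference is given with the genotype comparison.

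Gimap6 and Gimap1 overlapped between plasma cells and naive cells in both genotypes. Gimap6, tied to autophagy, was 879, 592, 681 and 696 CPM in naive cells of WT, and their plasma cells had 798, 632, 754 and 757. Its log2 fold change was 0.09 (SE 0.14) in WT and -0.05 (SE 0.08) in aPIK3CD. Gimap1, required for mature B cell survival, was 515, 328, 413 and 419 CPM in naive cells of WT, and their plasma cells had 478, 426, 488 and 481. Its values were 0.21 (SE 0.15) and -0.05 (SE 0.09). When libraries were scaled by their totals alone, the median of all genes moved by -0.46 in WT and -0.44 in aPIK3CD. In that scaling Gimap6 stood at -0.36 in WT and 8 of 8 genes fell in aPIK3CD, so the calls for Gimap6 and Gimap9, and in aPIK3CD for Gimap1, change with the scaling.

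Set against the dark zone, plasma cells had higher Gimap1 and Gimap6 and lower Gimap8. Of the 7 genes other than Gimap4, 3 rose in WT, Gimap1, Gimap5 and Gimap6, and 1 fell, Gimap8, where 28.4% and 26.7% of all genes rose and fell. In aPIK3CD 2 rose, Gimap1 and Gimap6, and 3 fell, Gimap3, Gimap8 and Gimap9, where 30.6% and 31.0% of all genes did. Gimap6 rose by 1.22 (SE 0.18, edgeR adjusted p = 1.13e-05) in WT and 1.23 (SE 0.14, edgeR adjusted p = 5.14e-06) in aPIK3CD. Gimap1 rose by 0.98 (SE 0.15) and 0.73 (SE 0.12). Gimap5 rose by 1.13 in WT (SE 0.21, edgeR adjusted p = 0.000145) and had a value of 0.30 (SE 0.26, edgeR adjusted p = 0.345) in aPIK3CD. Without the shallow library the WT values were 1.17 for Gimap6, 0.98 for Gimap1 and 1.14 for Gimap5. Gimap4, with no test, differed by 0.70 (SE 0.27) in WT and 0.64 (SE 0.16) in aPIK3CD, and by 1.19 in WT without dark zone replicate 4.

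Scaling by library totals alone moved the median of all genes from -0.02 to -0.40 in WT and from -0.06 to -0.43 in aPIK3CD. Gimap6 then stood at 0.83 and 0.86, Gimap1 at 0.60 and 0.35, Gimap5 in WT at 0.76, and all of these passed. Gimap4 stood at 0.31 and 0.26. Gimap3 and Gimap9 (-0.77) also passed in WT in that scaling, and Gimap7 (-0.81) in aPIK3CD, by edgeR.

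Some calls against the dark zone rest on single libraries or settings, while those of Gimap1, Gimap5 and Gimap6 in WT were kept without each library in turn. Gimap8 changed by -1.05 in WT (SE 0.38, edgeR adjusted p = 0.0263) and passed under 10 of 20 alternatives. It missed the threshold without dark zone replicate 1 (0.0599) or 4 (0.0739) and without plasma cell replicate 1 (0.123), 2 (0.188, with a value of -0.57) or 3 (0.137). It also missed it with DESeq2 size factors (0.0535), the DESeq2 Wald test (0.109), thinned libraries (0.101) and the bound correction (0.0789). Gimap3 did not pass in WT (-0.62, edgeR adjusted p = 0.0622) and did under 7 of 20 alternatives. Gimap9 changed by -0.38 in WT (edgeR adjusted p = 0.0812), and by -0.41 with an adjusted p of 0.0414 without the shallow library. In aPIK3CD the Gimap3 value was -0.82 (SE 0.27, edgeR adjusted p = 0.0161). It missed the threshold without plasma cell replicate 1 (-0.65, edgeR adjusted p = 0.0527) and when replicate 1 of aPIK3CD was grouped with WT (-0.68, edgeR adjusted p = 0.069). Gimap7 in aPIK3CD, at -0.43 with no call, passed without plasma cell replicate 1 (-0.62, edgeR adjusted p = 0.0383).

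T cells express GIMAP genes strongly, and T cell transcripts were present in the plasma cell libraries. The 12 T cell markers summed to 343 to 943 CPM in WT plasma cells and 395 to 480.5 in aPIK3CD plasma cells, with all 12 detected in each. The range was 59.8 to 153 in WT naive and 41.9 to 159 in aPIK3CD naive cells, 92.6 to 383 and 139 to 281 in the light zone, and 9.08 to 91.4 and 22.9 to 65.8 in the dark zone libraries of full depth. Trac, a T cell receptor gene, averaged 11.1 CPM in naive cells of WT and 88.7 CPM in their plasma cells. The marker sum was higher in plasma cells than in naive cells of each genotype. Of the GIMAP genes 5 were lower there, and Gimap1, Gimap6 and Gimap9 did not pass the test. The part of T cell transcripts in the plasma cell and light zone GIMAP levels was not tested. The natural killer cell markers summed to 43.7 to 92.9 CPM in WT plasma cells and 35.8 to 273 in aPIK3CD plasma cells. Of endothelial markers, whose cells also express GIMAP genes, the sum was at most 11.7 CPM in any library.

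In naive B cells no GIMAP gene passed the test between genotypes, 0 of 8, and 0 of 10421 genes did, which is 0 percent. By edgeR, 319 genes and 0 of the 8 had an unadjusted p below 0.05, and DESeq2 and limma voom also called 0 of the 8. The log2 differences were between -0.13 (Gimap7) and 0.32 (Gimap8, SE 0.18). In the dark zone 0 of the 7 genes other than Gimap4 passed, beside 0.0210% of all genes, with differences between -0.23 and -0.04. By edgeR 715 genes and 0 of the 7 had an unadjusted p below 0.05 there. Without the shallow library, and with DESeq2 and limma voom, 0 of the 7 passed as well. The Gimap4 difference was 0.10 (SE 0.23), and it rested on single WT libraries. It was 0.62 without replicate 4, -0.04 without replicate 1 and -0.10 without replicate 2.

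In the light zone, where Gimap4 was chosen, aPIK3CD was higher for Gimap4 by 0.54 (SE 0.11) and for Gimap5 by 0.27 (SE 0.14). These are descriptions with no test. In the edgeR fit over all genes 0 passed in this comparison, 0 to 1 when 1 replicate was left out, and 66 with no filter on low counts. For Gimap4 and Gimap5 the aPIK3CD libraries were all above the WT libraries, 2 of 8 genes, beside 2.41% of all genes. The share is not read as a result, since this contrast was used to choose Gimap4. When aPIK3CD replicate 1, at 473 CPM the highest for Gimap4, was grouped with WT, the Gimap4 difference was 0.35 and the groups overlapped. In the grouping by title the nearest libraries were 373 and 342 CPM for Gimap4 and 124 and 115 for Gimap5. The other 6 genes had differences between -0.21 and 0.11 and overlapped.

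In plasma cells the differences lay mostly the other way. Gimap5 was 140.5, 133, 150.0 and 115 CPM in WT and 76.2, 89.6, 39.3 and 88.5 in aPIK3CD. Every aPIK3CD library was below every WT library. Gimap5 fell by 0.90 on the log2 scale (SE 0.22, edgeR adjusted p = 0.0449). It was the only called gene of the 7 that passed the filter on low counts, with 1.22% of all genes falling. Gimap8, with 3 to 17 counts, was not tested.

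The Gimap5 call lies at the threshold. It was lost without each of the 8 libraries in turn, with adjusted p from 0.0535 to 0.111 and log2 values from -1.01 to -0.71. When aPIK3CD replicate 1 was grouped by its genotype field, as WT, the value was -0.77 (edgeR adjusted p = 0.265). With the total count as a covariate it was -1.06 (edgeR adjusted p = 0.23). The WT plasma cell libraries held 473149 to 704361 counts, and those of aPIK3CD 652722 to 788999.

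Gimap7 was also lower in most aPIK3CD plasma cell libraries. It was 170.0, 135, 189 and 108 CPM in WT and 117, 93.4, 69.2 and 66.3 in aPIK3CD, with 1 WT library inside the aPIK3CD range. The log2 difference of -0.83 (SE 0.22) did not pass (edgeR adjusted p = 0.0552), and it passed under 6 of 20 alternatives. Gimap1 was lower by 0.32 with no overlap between groups and did not pass (edgeR adjusted p = 0.119). Gimap4, the gene higher in the aPIK3CD light zone, had a difference of 0.04 (SE 0.16).

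Whether the change from naive to plasma cells depended on genotype was tested in a fit of all 32 libraries. None of the 8 genes passed, 0 of 8, beside 0.0596% of all genes, and DESeq2 and limma voom also called 0 of 8. The interaction was -0.90 (SE 0.27, edgeR adjusted p = 0.19) for Gimap5 and -0.68 (SE 0.28, edgeR adjusted p = 0.404) for Gimap7. By edgeR, 3 of the 8, and 1190 of 11736 genes, had an unadjusted p below 0.05. Without the shallow library the Gimap5 value was -0.90 (edgeR adjusted p = 0.193) and that of Gimap7 -0.68 (edgeR adjusted p = 0.385).

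**Figure D4:**
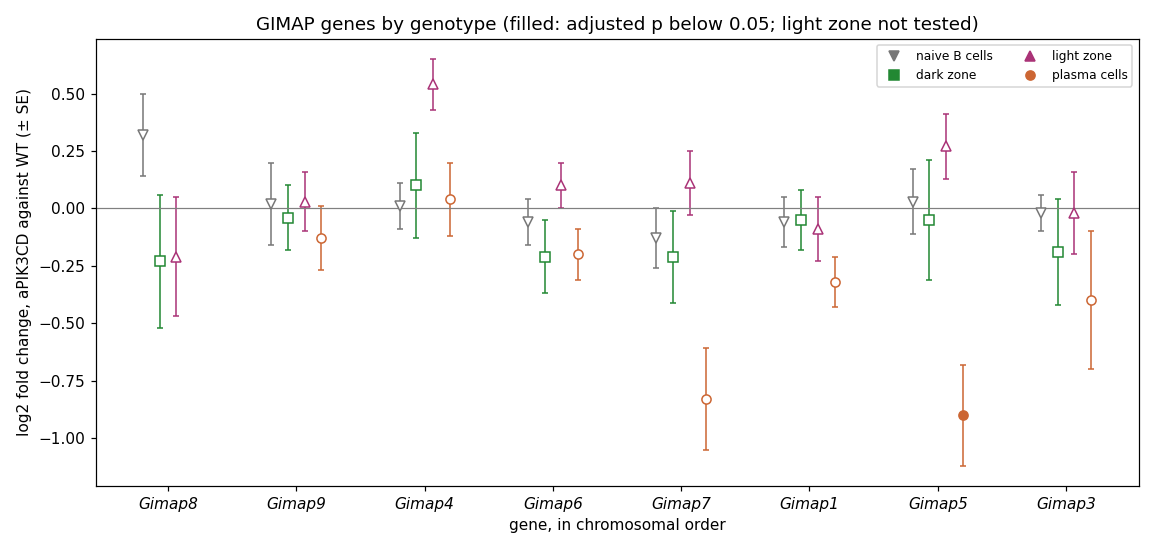
log2 difference of aPIK3CD over WT for each GIMAP gene in the 4 populations (vertical axis, bars are ± SE), with filled symbols for an edgeR adjusted p below 0.05 and the light zone, and Gimap4 in the dark zone, not tested. Gimap5 in plasma cells is the filled symbol, and Gimap4 in the light zone is the highest point.

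Other genes of related function give the setting. Among 17 genes of lymphocyte quiescence and recirculation, a list of transcription factors, antiproliferative genes and homing receptors, 13 fell and 3 rose in the WT dark zone, and 12 of 16 tested fell and 2 rose in the aPIK3CD dark zone. Rises were 19.8% and 22.2% of all genes there, and falls 21.6% and 21.4%. The list median was -2.24 in WT. S1pr1, the sphingosine phosphate receptor for egress, fell by 3.26 in WT (SE 0.22, edgeR adjusted p = 1.26e-08). The chemokine receptor gene Ccr7 fell by 4.18, and Klf3, which encodes a transcription factor, fell by 3.77.

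In the light zone 12 of 17 genes of that list fell and 1 rose in WT, and 13 fell and 1 rose in aPIK3CD. Of all genes 19.8% and 21.8% rose there, and 20.2% and 20.8% fell. In WT plasma cells 10 fell and 2 rose, and in aPIK3CD plasma cells 12 fell and 1 rose, with medians of -1.56 and -1.82. Falls were 24.2% and 26.2% of all genes there, and rises 25.4% and 26.5%. S1pr1 fell by 4.34 in WT plasma cells (edgeR adjusted p = 1.11e-09). Between genotypes in plasma cells 1 gene of the list fell and 0 rose, beside 1.22% of all genes falling and 1.98% rising. That gene was Ets1, a transcription factor that restrains plasma cell formation, lower by 1.11 (SE 0.21, edgeR adjusted p = 0.0219), with 132.5 ± 13.8 CPM in WT and 62.8 ± 17.4 in aPIK3CD.

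Another list held 8 genes reported to work with GIMAP proteins, which are Bcl-2 family and autophagy genes and the kinase gene Gsk3b. In plasma cells against naive cells 5 rose and 0 fell in WT, and 3 rose and 0 fell in aPIK3CD. Of all genes 25.4% and 26.5% rose there, and 24.2% and 26.2% fell. Gabarap and Map1lc3b, which encode autophagosome proteins, rose by 1.45 and 1.38 in WT. In the dark zone Bcl2, which protects from cell death, fell by 3.73 in WT (SE 0.26, edgeR adjusted p = 1.87e-08) and by 4.01 in aPIK3CD. It averaged 168 ± 21.6 CPM in WT naive cells and 9.33 ± 6.46 in the WT dark zone. Of this list 1 gene fell and 2 rose in the WT dark zone, and 2 fell and 1 rose in aPIK3CD. These counts are near the shares of all genes, of which 21.6% and 21.4% fell and 19.8% and 22.2% rose.

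The third list held 21 interferon-inducible, septin and small GTPases, 17 of them matched by name in the table. None of its septins was matched, so the counts below cover no septin. In the WT dark zone 10 of 15 tested fell and 1 rose, and in aPIK3CD 12 of 15 fell and 1 rose. Of all genes 21.6% and 21.4% fell there, and 19.8% and 22.2% rose. In the light zone 11 of 15 fell in WT and 10 of 14 in aPIK3CD, with 1 rise each. Falls were 20.2% and 20.8% of all genes there, and rises 19.8% and 21.8%. Irgm1, an interferon-inducible GTPase of lysosomes and mitochondria, fell by 3.35 in the WT dark zone (SE 0.38, edgeR adjusted p = 3.72e-06). Rhoh, a GTPase of blood cells that does not hydrolyse GTP, rose by 0.98 in the aPIK3CD dark zone. In plasma cells against naive cells 8 of 15 fell and 2 rose in WT, and 7 fell and 3 rose in aPIK3CD. Falls were 24.2% and 26.2% of all genes there, and rises 25.4% and 26.5%. Against the dark zone, 9 of 12 rose and 2 fell in WT plasma cells, beside 28.4% and 26.7% of all genes. Between genotypes in plasma cells 1 rose, Irgm1 (0.96, SE 0.22, edgeR adjusted p = 0.0404), and 0 fell, beside 1.98% and 1.22% of all genes.

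Genes flanking the cluster had patterns of their own. The 5 named coding genes before it in RefSeq order were Atp6v0e2, Lrrc61, Rarres2, Repin1 and Zfp775, and the 5 after it Tmem176b, Tmem176a, Aoc1, Doxl1 and Doxl2. Most had too few counts to be tested, 4 of 10 being tested in WT plasma cells against naive cells. Tmem176a and Tmem176b, which encode membrane proteins and overlap each other in the annotation, were the exception. Tmem176a averaged 4.18 ± 3.63 CPM in naive cells of WT and 1004 ± 80.7 CPM in their plasma cells. It rose by 7.99 (SE 0.45, edgeR adjusted p = 3.08e-09), while Gimap3, the nearest family member, fell.

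Tmem176b rose by 6.92 in the same comparison. In plasma cells of aPIK3CD against WT, Tmem176b fell by 0.57 (edgeR adjusted p = 0.0217) and Tmem176a by 0.52 (edgeR adjusted p = 0.0272). How reads were split between this overlapping pair is uncertain. In the aPIK3CD dark zone 2 of 4 tested neighbours fell, beside 21.4% of all genes. Lrrc61 fell by 4.43 (SE 0.72, edgeR adjusted p = 0.00034) and Tmem176b fell by 3.44 (SE 0.89, edgeR adjusted p = 0.00749). Their naive levels were low, at 25.3 ± 15.3 and 16.8 ± 6.45 CPM, and their dark zone levels were 1.12 ± 0.578 and 1.60 ± 2.31 CPM. Both genes passed the filter on low counts through their naive libraries. A fall was then the only call open to them, so nothing is read from the count of 2.

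The gene whose levels were most like those of Gimap4 was Ifi47, an interferon-inducible GTPase outside the cluster. Likeness is Pearson's r of log2 CPM over 31 libraries, which share their populations and their differences in depth, among 9534 genes with a mean of at least 10 CPM. It was 0.959 for Ifi47. Next came Ifngr2 (0.874), a chain of the interferon gamma receptor, Surf2 (0.871), D1Ertd622e (0.865) and Slfn2 (0.863), a gene of lymphocyte quiescence. Within groups, after subtracting each group's mean, r for Ifi47 was 0.790. For the other 4 genes it was 0.440 to 0.549.

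Ifi47 averaged 288 ± 38.3 CPM in WT naive cells, 175.0 ± 11.9 in the WT light zone, 136 ± 25.5 in WT plasma cells and 97.5 ± 49.2 in the WT dark zone. In aPIK3CD it was 299 ± 43.0, 247 ± 11.8, 161 ± 27.1 and 119 ± 17.2 in the same order. The order of the 8 groups was that of Gimap4. Ifi47 was picked as the gene most like Gimap4 over these libraries, so a like order follows from the pick and is no further result. Of the other GIMAP genes Gimap5 was the most like Gimap4 (r = 0.849), followed by Gimap7 (0.734), Gimap3 (0.716), Gimap6 (0.582), Gimap8 (0.520) and Gimap1 (0.459). Gimap9, its neighbour in the cluster, had r = -0.138.

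**Figure D5:**
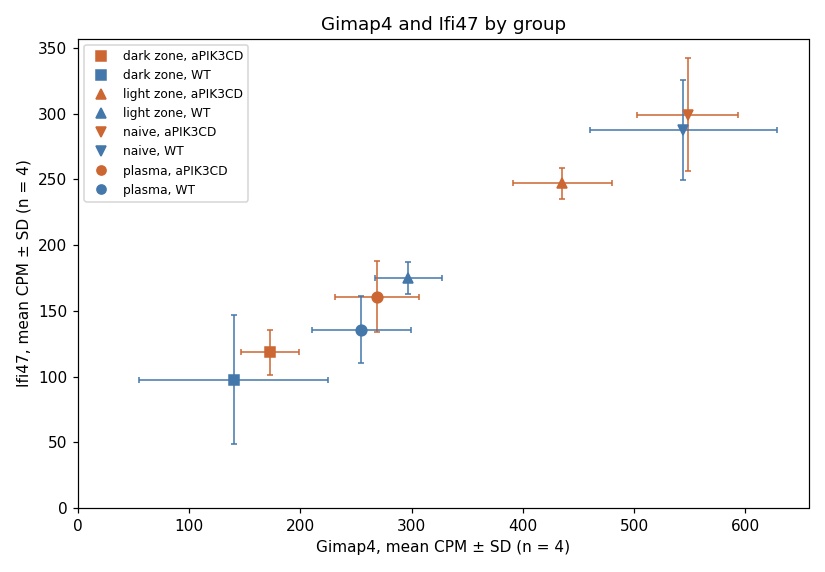
Mean CPM of Ifi47 (vertical axis) against mean CPM of Gimap4 (horizontal axis) in the 8 groups, with bars for the SD of 4 libraries. The groups lie near a rising line, from the dark zone at the lower left to naive B cells at the upper right. Ifi47 was picked for its likeness to Gimap4 in these libraries, so the line follows from the pick.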

How the data were processed

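Bulk RNA-seq libraries came from a SMART-Seq v4 kit, per the labels' protocols. The authors deposited raw counts for 53465 genes in 32 columns, each mapped to a sample. The submitters' processing notes list STAR 2.4.2a, HTSeq and Picard, with no role given. The genome build, annotation and treatment of duplicate or multi-mapped reads are not given in the sources used here. Exon lengths came from GENCODE M21.

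The members and lists were chosen with earlier results of these data known. For each pair of groups, a separate model was fitted (edgeR 4.0.16, R 4.3.3, TMM, filterByExpr with minimum count 10 and minimum total 15, two-sided quasi-likelihood F test) on all genes passing the filter, with Benjamini-Hochberg adjustment over those genes and a threshold of 0.05. The interaction was fitted over all 8 groups. SE was taken as log2 fold change over root F, without sign. CPM use TMM factors over all 32 libraries. The fit was tested on simulated data. Named genes are the 8 members, up to 4 of each list with the smallest p in the comparison described, the 5 most like Gimap4 (prior count 2) and 5 neighbours on each side.

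Alternatives were DESeq2 1.42.0 size factors and Wald test, limma 3.58.1 voom with quality weights, no low-count filter, no immunoglobulin or T cell receptor genes, thinning to the smallest total, 1 fit over all groups, aPIK3CD replicate 1 as WT, leaving out the library under 100000 counts or each replicate, and the replicate number as a block. Added after seeing the data were a correction for 2 counts per exonic base, scaling by totals alone and, for genotype in plasma cells, the total count as a covariate. Some genes that these rules would name are not reported here.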

Additional observations from a re-analysis of the deposited data

Results flagged for a closer look

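In 3 of 64 gene and group combinations, 1 library of 4 stood apart from the others by Dixon's criterion. Chance gives about 1 in 20. Gimap1 in WT plasma cells replicate 2 was 426 CPM against 478 to 488 in the others. Gimap6 in the aPIK3CD light zone replicate 1 was 443 CPM against 379 to 386. Gimap7 in aPIK3CD naive B cells replicate 1 was 305 CPM against 242 to 245, and this library bears on the light zone result for Gimap7 given above.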

How the results depend on the processing

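Over 15 results, each counted or summarised over all 8 genes, 280 of 298 alternatives gave a count within 1.5 times or a median within the spread. For single genes, 2296 of 2364 values stayed on the same side of the threshold or within the spread, 36 lost a call, 30 gained one, 1 moved and 1 reversed. The sign changed in 47, of which 46 were values that had not been called. The value that moved is Gimap4 between genotypes in the light zone, 0.35 with aPIK3CD replicate 1 counted as WT. The reversed value is Gimap6 in WT plasma cells against naive cells, which was 0.09 and became -0.36 with library totals and no TMM factor (edgeR adjusted p = 0.0273). The same scaling gave 8 genes past the threshold in aPIK3CD, against 5. For plasma cells against the dark zone in WT, leaving out 1 replicate gave 3 to 5 genes, Gimap4 counted. For genotype in plasma cells, where 1 gene passed, 2 passed with the DESeq2 Wald test, no filter on low counts, no immunoglobulin or T cell receptor genes, or thinned libraries. There 0 passed with aPIK3CD replicate 1 counted as WT, library totals alone, the total count as a covariate, or the replicate block, and 0 to 1 when 1 replicate was left out. The cause was not tested. The median of the light over dark zone differences in aPIK3CD was 0.44 to 0.62 when 1 replicate was left out.

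Same-numbered libraries deviated together weakly or not at all. Between populations of 1 genotype r was -0.073 to 0.247, above 0.1 in 7 of 45 pairs. The highest were the dark and light zones of aPIK3CD replicate 1 (0.222) and replicate 2 (0.247). Between genotypes r was -0.106 to 0.089, above 0.1 in 0 of 15 pairs. The replicate block gave Gimap5 in plasma cells -0.94 (edgeR adjusted p = 0.0851) and, for plasma cells against the dark zone in WT, took Gimap8 out (-1.07, edgeR adjusted p = 0.0512) and brought Gimap3 in (-0.71, edgeR adjusted p = 0.0458). It changed no other call of a GIMAP gene. Over all genes, genotype in plasma cells called 249 genes, 694 with no filter, 77 with the block and 2 with aPIK3CD replicate 1 as WT, and 15 to 243 when 1 replicate was left out. The interaction called 7 genes, and 132 with no filter, and genotype in the dark zone 2, and 80 with no filter. Of called genes, 51.2% were higher in WT plasma cells than in naive cells and 30.3% with library totals alone, and in aPIK3CD 50.3% and 30.2%. Against the dark zone the shares were 51.6% and 34.3% in WT and 49.6% and 34.3% in aPIK3CD, and 62.2% in WT after correction for the bound. For the WT dark zone against naive cells they were 47.9%, and 37.1% with DESeq2 size factors. Depth limits Gimap8 in plasma cells most, at 3 to 17 counts.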
